A study of Bos taurus with 8 samples.

Results

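Tight junctions are the belts of membrane and cytoplasmic proteins that close the space between neighbouring epithelial cells. The 9 genes described here code for parts of that belt in the trophectoderm, the outer epithelium of the conceptus: the claudins CLDN6, CLDN4 and CLDN7, the membrane proteins OCLN, MARVELD2 and F11R, the scaffold proteins TJP1 and TJP3, and the linker CGN. They were taken by gene symbol from the deposited table of 15267 genes. All 9 symbols were found there, each on 1 row, and all 9 passed the filter on low values that 11897 genes passed.

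Transcripts were measured by RNA sequencing of poly-A RNA from day 15 bovine conceptuses, in 4 FLI samples and 4 control samples, with a stranded library kit. The FLI samples are labelled as treated with the growth factors FGF2 and IGF1 and the cytokine LIF, and the controls as control. Every sample was a conceptus-half at the filamentous stage, from in vitro embryo development, and the title of the study refers to slow-rate freezing, without saying which of these samples were frozen as embryos. The samples carry the names of their titles, FLI 20, FLI 3M, FLI 4M and FLI 50, and control 10, control 20, control 3M and control 4M. Nothing in the labels says which tissues each piece held or whether samples came from separate embryos, so p-values here reflect the spread among the 8 libraries, which may be technical.

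Levels are the authors' CPM, read counts relative to a library total scaled by the TMM method, given as mean ± SD with n = 4 per group. Over the genes of the deposited table, reads recovered from the CPM summed to 108851495 to 152570016 per library. These sums are the plain library totals used below, and reads outside these genes are not in them. The 9 genes had 2343 to 153921 reads each per library. Counting error was at most 2.07% of a value (1 SD) if each read was independent, which was not tested, and larger otherwise.

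In an epithelium the claudins form the paracellular seal and its ion-selective pores. Occludin and tricellulin, the products of OCLN and MARVELD2, span the membrane beside them, and the zonula occludens proteins tie them to the actin cortex. In the mammalian blastocyst this seal lets the trophectoderm pump and hold fluid, and the trophoblast keeps it as an epithelial barrier while the conceptus elongates.

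No difference between FLI and control samples passed the test for any of the 9 genes. The limma test on log2(CPM + 0.5) called 0 of the 9 and 0 of 11897 genes (0.0%) at an adjusted p of 0.05, and 0 of the 9 had an unadjusted p under 0.05, against 338 (2.84%) of all tested genes. Adjusted p-values of the 9 genes lay between 0.970 and 0.975. Mean levels on the log2 scale were higher in FLI samples for 8 of the 9, with TJP1 the exception, against 50.8% of all tested genes; with plain library totals in place of TMM scaling it was 6 of the 9, F11R and CGN being lower, against 35.5% of all tested genes. The median log2 difference was 0.15 for the 9 genes and 0.0045 for all tested genes. For 0 of the 9 did the FLI and control samples separate fully, which they did for 1.45% of tested genes. On recovered reads the edgeR quasi-likelihood test called 0 genes (0.0%), and 374 (3.14%) had p under 0.05 before adjustment. DESeq2 called 9 of 11812 genes (0.0762%), 0 of them among the 9 tight junction genes, and 608 (5.11%) had p under 0.05 before adjustment. The authors' deposited table holds 32 of 15267 genes (0.21%) with an adjusted p under 0.05, 0 of them among the 9, and 808 (5.29%) with p under 0.05 before adjustment, among them TJP3. In RNA from whole pieces, fewer cells of a type and less RNA per cell cannot be told apart.

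Per kilobase of exon, the order of levels ran CLDN6, CLDN4, CLDN7, OCLN, CGN, TJP1, F11R, TJP3 and MARVELD2. The means over all 8 samples were 654, 276, 162, 69.8, 57.7, 42.4, 39.6, 21.5 and 21.01 CPM per kb. Each of the first 3 steps held in all 8 samples. OCLN was above CGN in 7 samples, with control 10 the exception, and CGN was above TJP1 in 7, again with control 10 the exception. TJP1 and F11R changed places between samples, with TJP1 higher in 5, and TJP3 was above MARVELD2 in 4.

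CLDN6 codes for a claudin typical of embryonic epithelia. The gene (ENSBTAG00000045901) occupies positions 2433098 to 2436408 on chromosome 25 of the build ARS-UCD1.2, which all coordinates here follow. CLDN6 stood at 1059 CPM in FLI 20, 941 in FLI 3M, 915 in FLI 4M and 813 in FLI 50, against 512 in control 10, 775 in control 20, 1149 in control 3M and 677 in control 4M. The controls spanned the FLI range on both sides. The means were 932 ± 101 CPM in FLI and 778 ± 270 CPM in control samples, a log2 difference of 0.32 (SE 0.24, 95% interval -0.23 to 0.86). Leaving out control 10 gave 0.14, and leaving out control 3M gave 0.52. Its neighbour CLDN9 lies on the opposite strand, with 772 bases between the 2 genes and no other gene of the table there, and CLDN9 did not exceed 1 CPM in any sample.

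CLDN4 codes for a claudin that restricts the passage of cations in many epithelia. It lies on chromosome 25 at 33477756 to 33479301 (ENSBTAG00000026278). CLDN4 stood at 521, 441, 418 and 419.7 CPM in FLI 20, FLI 3M, FLI 4M and FLI 50, against 354, 393, 462 and 411 CPM in control 10, control 20, control 3M and control 4M. FLI 20 was the highest sample and control 10 the lowest, and the groups overlapped between them. The group means were 449.9 ± 48.3 CPM in FLI and 405 ± 45.1 CPM in control samples, a log2 difference of 0.15 (SE 0.13, 95% interval -0.15 to 0.45), with 0.09 when control 10 was left out and 0.08 when FLI 20 was.

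CLDN7, a claudin that binds the adhesion protein EPCAM, lies on chromosome 19 at 26970222 to 26972580 (ENSBTAG00000019448). Its levels were 177, 231, 275 and 205 CPM in FLI 20, FLI 3M, FLI 4M and FLI 50, against 114, 193, 281 and 270.0 CPM in control 10, control 20, control 3M and control 4M. The 3M and 4M samples were the higher ones of each group. The means were 222 ± 41.8 CPM in FLI and 215 ± 77.6 CPM in control samples (log2 difference 0.11, SE 0.29, 95% interval -0.55 to 0.77), and without control 10 the difference was -0.16.

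These 3 claudins made up nearly the whole claudin pool. Of the summed CPM per kb of the 13 claudin genes found in the table, CLDN6, CLDN4 and CLDN7 took 95.8 to 96.8% in FLI samples and 95.5 to 97.4% in controls. CLDN6 alone took 58.6 ± 1.66% in FLI and 55.9 ± 4.70% in control samples. CLDN4 took 24.0 ± 1.40% in FLI and 25.8 ± 4.36% in control samples, and CLDN7 13.6 ± 2.86% in FLI and 14.9 ± 3.36% in control samples. The next claudin per kb was CLDN23, at 27.6 ± 4.97 CPM in FLI and 17.5 ± 9.72 CPM in control samples. CLDN23 was down to 3.98 CPM in control 10 and at 19.4 to 32.0 CPM in every other sample.

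**Figure D1:**
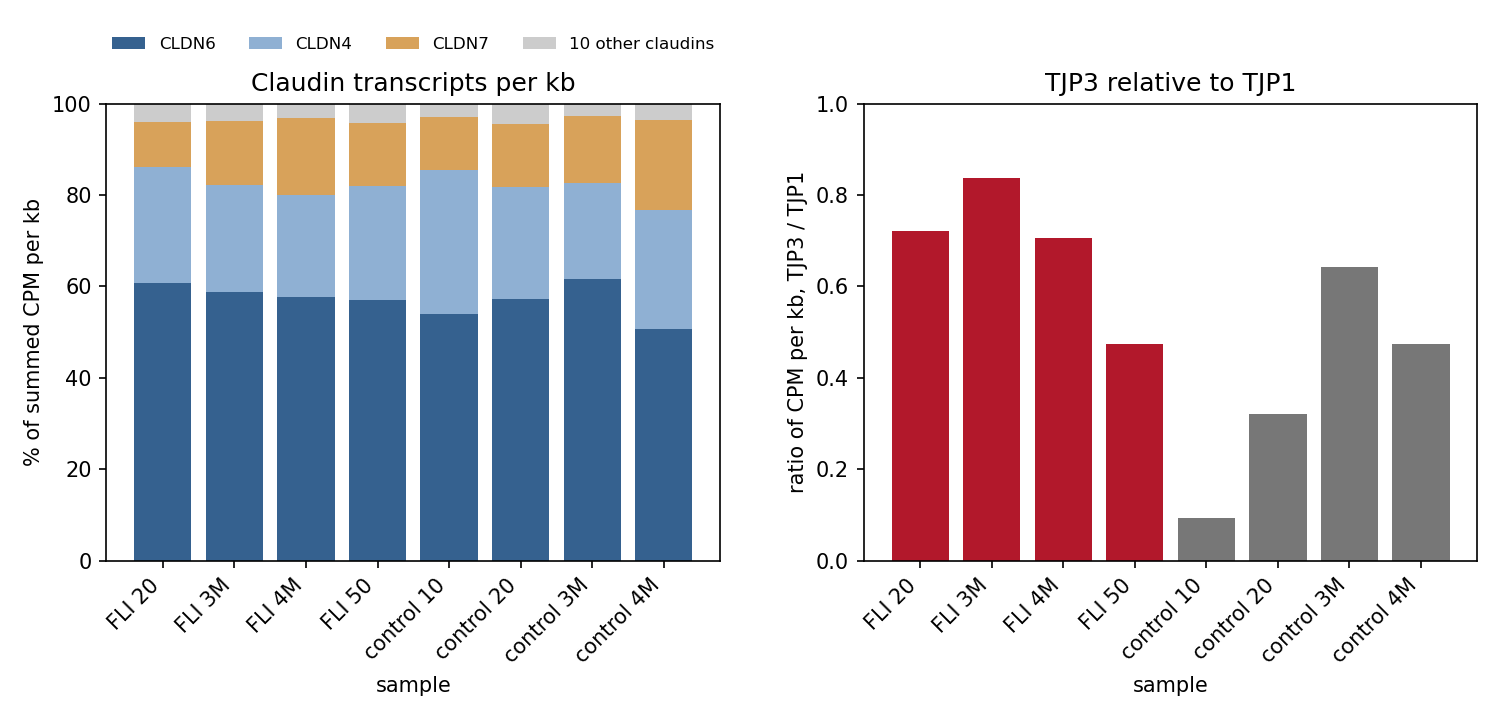
The left panel stacks each claudin's share (percent) of the summed claudin CPM per kb in each sample, and the right panel shows the ratio of TJP3 to TJP1 in CPM per kb as bars, with FLI samples left and controls right in both. CLDN6 is the tallest claudin segment in all 8 samples at 50.7 to 61.7%, and the TJP3 to TJP1 ratio is 0.475 to 0.837 in FLI samples against 0.094 in control 10 and 0.321 to 0.643 in the other controls.

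OCLN and MARVELD2 code for the paralogous proteins occludin, of the tight junction strands, and tricellulin, of the contacts between more than a pair of cells. The genes are neighbours on chromosome 20, OCLN at 10230183 to 10276416 (ENSBTAG00000000561) and MARVELD2 at 10317496 to 10341306 (ENSBTAG00000040001), both on the minus strand with 41079 bases and 0 genes of the table between them. OCLN stood at 151, 181, 194 and 201 CPM in FLI 20, FLI 3M, FLI 4M and FLI 50, against 50.8, 148, 191 and 161 CPM in control 10, control 20, control 3M and control 4M. Control 10 lay far below the other 7 samples, which covered 148 to 201 CPM. The means were 182 ± 21.97 CPM in FLI and 138 ± 60.8 CPM in control samples, a log2 difference of 0.55 (SE 0.38, 95% interval -0.32 to 1.41), and of 0.12 without control 10.

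MARVELD2, like OCLN, had its lowest level in control 10. It stood at 83.4, 112, 104 and 94.6 CPM in FLI 20, FLI 3M, FLI 4M and FLI 50, against 29.9, 64.1, 86.1 and 100.3 CPM in control 10, control 20, control 3M and control 4M. FLI samples were all above control 10 and control 20, and overlapped with the other two. The group means were 98.4 ± 12.2 CPM in FLI and 70.1 ± 30.7 CPM in control samples (log2 difference 0.61, SE 0.34, 95% interval -0.17 to 1.39), and without control 10 the difference was 0.25. The ratio of OCLN to MARVELD2 per kb stayed between 2.84 and 3.72 in FLI samples and between 2.81 and 4.04 in controls, control 10 included at 2.98.

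F11R, the junctional adhesion molecule A, is an immunoglobulin-type receptor that helps to set up the junction and cell polarity. It lies on chromosome 3 at 8464412 to 8488977 (ENSBTAG00000017846). F11R was nearly level across samples, at 129.6, 105, 107 and 116 CPM in FLI 20, FLI 3M, FLI 4M and FLI 50, against 122, 112, 106 and 89.7 CPM in control 10, control 20, control 3M and control 4M. Here control 10 was the highest control. Its means were 114 ± 11.5 CPM in FLI and 107 ± 13.4 CPM in control samples, and the 95% interval of the log2 difference ran from -0.21 to 0.39.

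TJP1 and TJP3 code for ZO-1 and ZO-3, scaffolds of the same family whose PDZ domains bind claudin tails. TJP1 (ENSBTAG00000015398, chromosome 21, 28399040 to 28430307) stood at 235, 206, 234 and 263 CPM in FLI 20, FLI 3M, FLI 4M and FLI 50, against 311, 257, 205 and 263 CPM in control 10, control 20, control 3M and control 4M. Control 10 was the highest sample, unlike its place for most of the other genes. The means were 234 ± 23.5 CPM in FLI and 259 ± 43.4 CPM in control samples, with a log2 difference of -0.13 (SE 0.15, 95% interval -0.47 to 0.21), and of -0.04 without control 10.

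TJP3 had the widest range and the largest difference of the 9 genes on the log2 scale. The gene (ENSBTAG00000018342) lies on chromosome 7 at 20221723 to 20252247. TJP3 stood at 103 CPM in FLI 20, 104 in FLI 3M, 100.1 in FLI 4M and 75.8 in FLI 50, against 17.8 in control 10, 49.9 in control 20, 79.9 in control 3M and 75.5 in control 4M. FLI samples other than FLI 50 lay above every control, and FLI 50 lay among the highest controls. The means were 95.8 ± 13.5 CPM in FLI and 55.8 ± 28.5 CPM in control samples, a log2 difference of 0.97 (SE 0.43, 95% interval -0.02 to 1.96). This missed the threshold, with a limma adjusted p of 0.970. The authors' deposited table gives TJP3 a log2 fold change of 0.66 with a p of 0.0323 and an adjusted p of 0.815. Without control 10 the log2 difference was 0.50 (limma adjusted p = 0.998), and between samples of equal title number it was 0.61 (limma adjusted p = 0.695). Before adjustment TJP3 had p under 0.05 in both of these fits, as did 199 genes in all without control 10 and 806 with the title number as a block. The block fit holds 6 samples and also lacks control 10, as well as FLI 50, the lowest FLI sample for TJP3. Both fits thus rest on leaving out control 10, and the same 6 samples without the block also gave 0.61. Of the 18 alternatives run, TJP3 had p under 0.05 before adjustment in 7, CLDN6 and MARVELD2 in 1 each, and the other 6 genes in 0. In those fits 197 to 806 of 11897 tested genes had p under 0.05 before adjustment. The alternatives reuse the same 8 libraries, so they are not separate tests. TJP3 shares 275 exon bases with APBA3 on the opposite strand, and the strand setting of the read counting is not given in the sources used here. APBA3 stood at 41.1 ± 10.4 CPM in FLI and 32.9 ± 3.57 CPM in control samples, with 28.2 CPM in control 10.

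**Figure D2:**
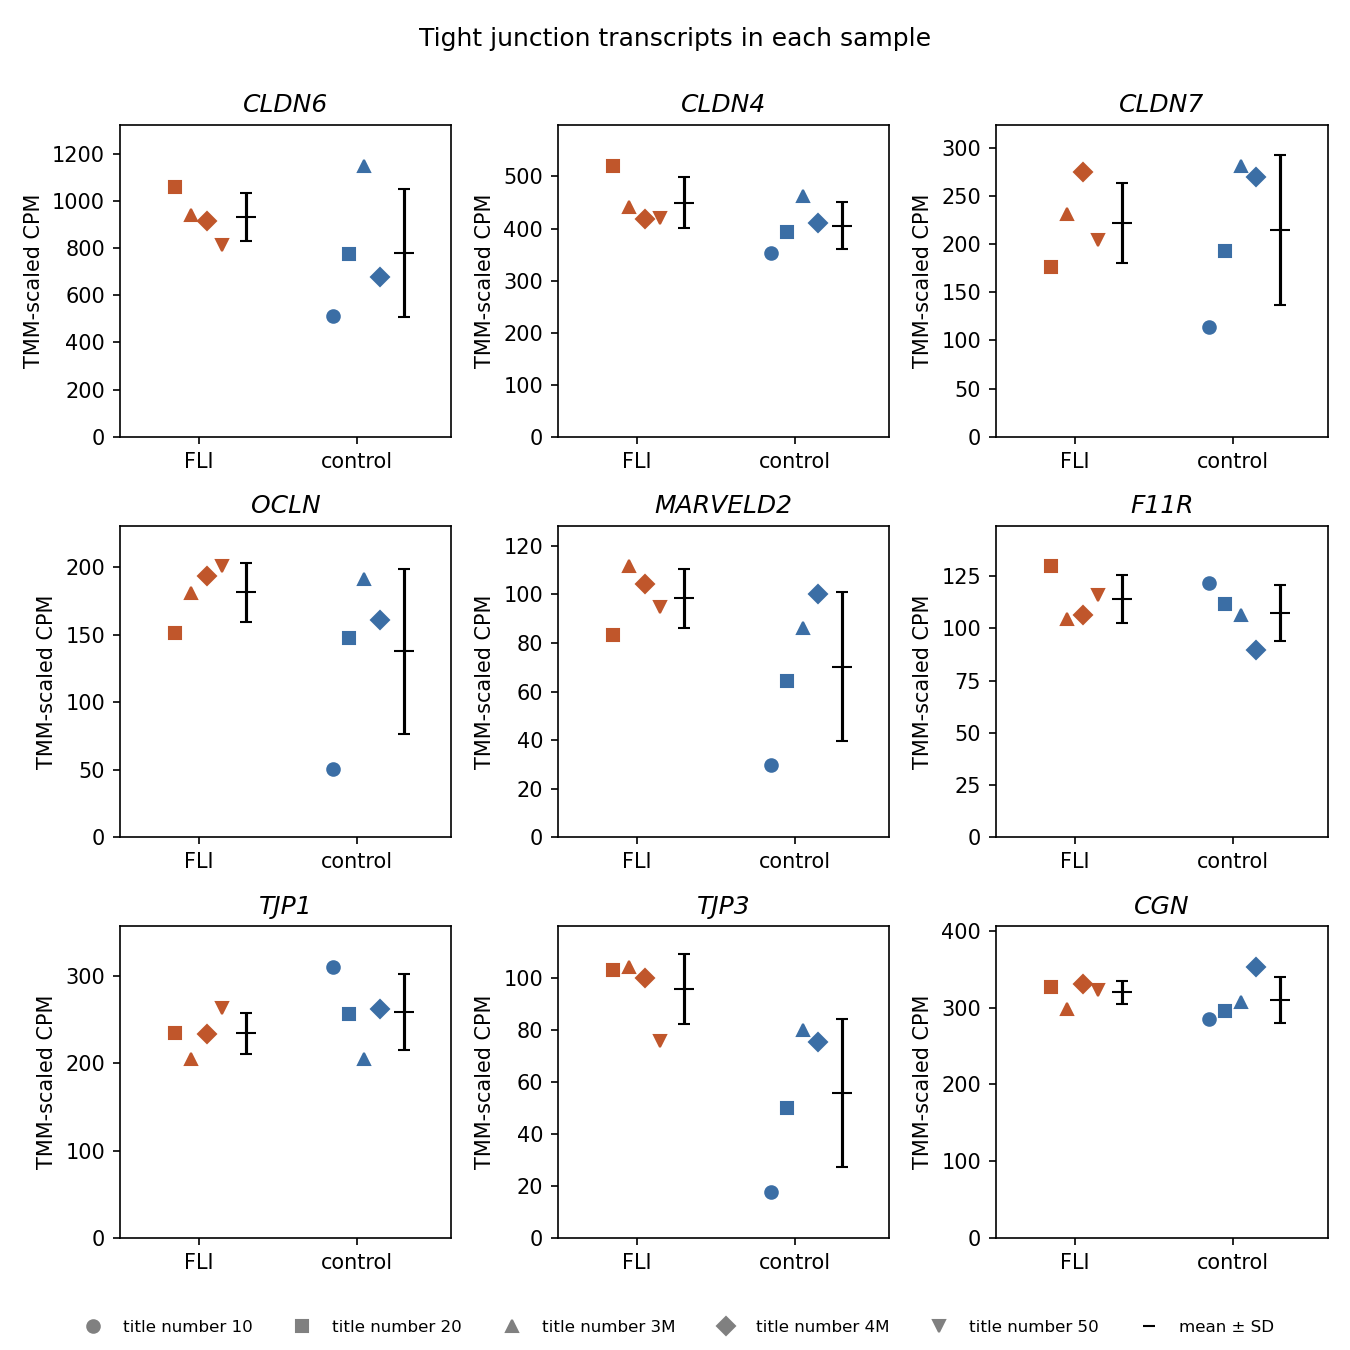
TMM-scaled CPM of each gene (vertical axes from 0) in the 4 FLI samples, left, and the 4 controls, right; marker shapes give the title number and the black bar the mean ± SD. For TJP3, OCLN and MARVELD2 control 10 lies far below the rest (17.8, 50.8 and 29.9 CPM), while F11R, TJP1 and CGN vary little.

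Per kilobase, TJP3 stood lower than TJP1 in every sample. The ratio of TJP3 to TJP1 was 0.722 in FLI 20, 0.837 in FLI 3M, 0.705 in FLI 4M and 0.475 in FLI 50, against 0.094 in control 10, 0.321 in control 20, 0.643 in control 3M and 0.473 in control 4M. FLI 50 lay among the controls, and the other FLI samples lay above all of them. No test was made of this ratio, which was computed after the values were seen.

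CGN codes for cingulin, which links the ZO scaffolds to actomyosin. It lies on chromosome 3 at 19252157 to 19277508 (ENSBTAG00000017564). CGN varied least of the 9 genes on the log2 scale, at 327, 298, 331 and 323 CPM in FLI 20, FLI 3M, FLI 4M and FLI 50, against 285, 296, 307 and 353 CPM in control 10, control 20, control 3M and control 4M. The controls again spanned the FLI range. Its 95% interval of the log2 difference was -0.21 to 0.30, around means of 319.7 ± 14.5 CPM in FLI and 310.3 ± 30.1 CPM in control samples.

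**Figure D3:**
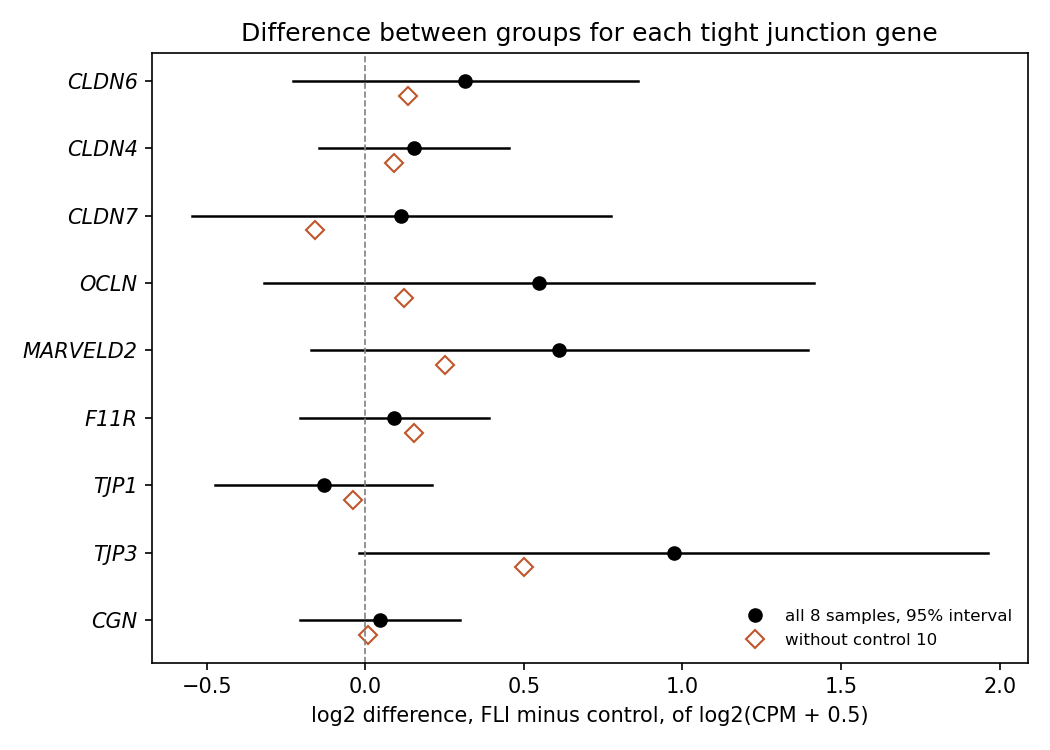
Log2 difference, FLI minus control, of each gene with all 8 samples (filled circles with 95% intervals) and without control 10 (open diamonds). All 9 intervals include 0, and without control 10 the differences of OCLN, MARVELD2 and TJP3 move to 0.12, 0.25 and 0.50.

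One library carried much of the spread. Control 10 had the lowest level of 7 of the 9 genes, where it was the lowest sample for 28.3% of all tested genes, and the highest level of TJP1, where it was highest for 23.9%. TJP3 was at 17.8 CPM there, 0.260 of the mean of the other controls, OCLN at 0.305 of it, MARVELD2 at 0.358, CLDN7 at 0.461 and CLDN6 at 0.591. CLDN4 and CGN were within reach of the others at 0.838 and 0.893, and F11R and TJP1 were above them at 1.19 and 1.29. The junction genes thus differed among themselves in this library. FLI 20 was the highest sample for 2 of the 9, CLDN4 and F11R, as it was for 20.1% of tested genes. The SD of log2 levels over all 8 samples was 0.84 for TJP3, 0.65 for OCLN, 0.61 for MARVELD2, 0.43 for CLDN7 and 0.37 for CLDN6, above the median of 0.31 over tested genes. It was 0.20 for TJP1, 0.16 for CLDN4 and F11R and 0.10 for CGN. Without control 10 the SD of TJP3 was 0.37, and that of the other 8 genes was 0.27 or less, against a median of 0.28. The log2 levels had a lower SD in FLI than in control samples for 9 of the 9 genes and for 60.0% of tested genes. With control 10 left out this held for 8 of the 9 and for 44.5% of tested genes, and for 7 of the 9 where the SD was taken on CPM.

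**Figure D4:**
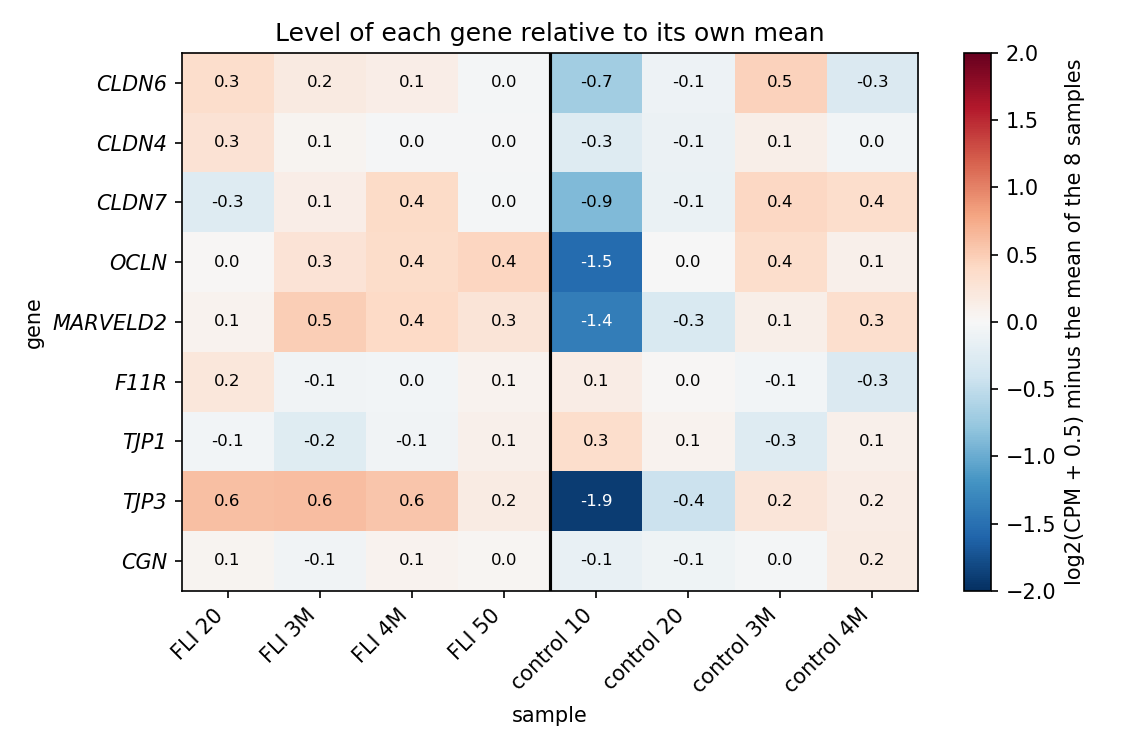
Log2(CPM + 0.5) of each gene minus its own mean over the 8 samples (red above, blue below; FLI samples left of the line, controls right). The control 10 column is dark for TJP3, OCLN and MARVELD2 and near 0 or above for F11R, TJP1, CLDN4 and CGN.

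Some markers of other tissues stood apart in control 10 too, and several of those named here were chosen after their values were seen. The summed CPM of 10 hypoblast markers was 864 to 2381 in FLI samples and 605 to 3015 in the other controls. It was 6657 in control 10, where APOA1 alone gave 6183 CPM. Of the 10, 7 had their highest level there, as 23.9% of all tested genes did. Among them HNF4A, a transcription factor of endoderm, was at 129 CPM in control 10 and at 17.2 to 70.5 CPM elsewhere. AFP was at 0 reads in some samples. The summed CPM of 10 mesoderm markers was 10.5 to 25.9 in FLI samples and 10.4 to 32.2 in the other controls, against 131 in control 10, where COL1A1 alone gave 102 CPM. Of these 10 markers 3 had their highest level in control 10, against 23.9% of all tested genes, and 1, MIXL1, had its lowest there. TWIST1 was at 0.0912 CPM in control 10, against a mean of 0.904 CPM in the other controls. TBXT and EOMES were highest in control 20. TBXT, EOMES and COL3A1 were at 0 reads in some samples. The 13 trophectoderm markers summed to 20407 to 48684 CPM in FLI samples and 20621 to 33346 CPM in the other controls. The sum was 18278 CPM in control 10, most of it KRT8, KRT18 and PAG11 at 10694, 5089 and 2085 CPM. Of the 13, 8 had their lowest level in control 10, against 28.3% of all tested genes, and 1, TEAD4, had its highest. Among the 8 were TFAP2C at 24.4 CPM (153 to 273 CPM elsewhere) and CDX2 at 6.92 CPM (27.2 to 94.9 CPM elsewhere). In control 10 TEAD4 was at 84.8 CPM, HAND1 at 24.4 CPM and ELF5 at 2.72 CPM. Their means in the other controls were 48.5, 12.9 and 2.81 CPM. The abundant keratin KRT8 was not low in control 10 either, with 6804 to 12585 CPM elsewhere. Of the epiblast markers 6 of 9 were found in the table, and NODAL and PRDM14 were at 0 reads in some samples. The 6 summed to 53.4 to 140.04 CPM in FLI samples, 51.5 to 229 CPM in the other controls and 220 CPM in control 10. The 4 endometrium markers found in the table summed to 15.9 to 37.2 CPM in FLI samples and 12.1 to 27.6 CPM in the other controls. The sum was 53.6 CPM in control 10, most of it MUC1, which epithelia share, at 51.5 CPM. Of the 4, 2 had their highest level in control 10 and 2 their lowest. The 2 leukocyte and blood markers found there summed to 2.60 to 14.6 CPM in FLI samples and 2.44 to 7.16 CPM in controls. Between the groups, 12 of 13 tested trophectoderm markers had a higher mean log2 level in FLI samples, against 50.8% of all tested genes. A lower one was found for 8 of 9 hypoblast, 5 of 5 epiblast and 3 of 3 mesoderm markers, and limma called 0 of these markers. Control 10 is part of the control means in these counts, and counts without it are not given here. The authors' deposited table calls PAG2, a trophoblast glycoprotein gene, higher in FLI samples (adjusted p 0.000482), and AFP (adjusted p 0.00573) and COL1A2 (adjusted p 0.00818) lower. Control 10 is among the controls of these calls too. In it PAG2 was at 183 CPM, AFP at 4.76 CPM and COL1A2 at 5.61 CPM. Their means in the other controls were 476, 3.53 and 0.532 CPM. The part of these tissues in the junction values was not tested.

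Some junction genes ran in parallel across samples. As a description over 8 samples that share their libraries, log2 levels of MARVELD2 and TJP3 had a Pearson r of 0.96, OCLN and MARVELD2 0.95, and CLDN4 and CLDN6 0.87. Without control 10, over 7 samples, these were 0.76, 0.60 and 0.77. Of the 36 pairs 18 had an r above 0.5 over 8 samples and 9 over 7 samples. TJP1 ran against CLDN6, with an r of -0.91 over 8 samples and -0.81 without control 10. F11R ran against CLDN7, at -0.71 and -0.77.

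The genes with a symbol most like each of the 9 were sought among 10902 tested genes. For CLDN7 they were PPP5C (r = 0.996) and COBL (0.994), for CLDN6 TP53I13 (0.992) and AMDHD2 (0.983), and for CLDN4 H2AJ (0.988) and SPNS1 (0.983). For OCLN they were PLS1 (0.988) and TMEM79 (0.987), for MARVELD2 MCCC1 (0.987) and CNNM3 (0.986), and for F11R EFNA1 (0.965) and ANXA2 (0.952). For TJP1 they were CNTRL (0.986) and FBXO30 (0.984), for TJP3 HOXB8 (0.987) and PIK3R2 (0.986), and for CGN MCM3AP (0.978) and TXNDC15 (0.963). Without control 10 the values for OCLN were 0.85 and 0.83, and the other 16 stayed at 0.91 or above. These 7 samples are part of the 8 over which the genes were picked from 10902. High values thus partly follow from the choice, and they are no separate check of the likeness. Transcription factors of the trophectoderm were looked at after the values were seen. The closest pairs were CDX2 with CLDN7, at an r of 0.99 over 8 samples and 0.98 over 7, and TFAP2A with TJP3, at 0.98 and 0.92. Other pairs were weaker, fell without control 10 or ran the other way. CDX2 had 0.40 and -0.34 with CLDN4 and -0.72 and -0.82 with F11R, and TFAP2C had 0.94 and -0.018 with OCLN.

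Beyond the 9 genes, 10 lists of junction, polarity and related genes held 126 symbols, of which 108 were in the table and 92 were tested. In these lists 0 genes passed in either direction (limma, adjusted p of 0.05). There were 55 with a higher and 37 with a lower mean log2 level in FLI samples, or 44 with a higher one under plain library totals, and the median difference was 0.07. At an unadjusted p under 0.05 there were 5, namely CGNL1, SCRIB, EVPL, AQP11 and AQP3, of which 4 were higher in FLI samples and AQP3 was lower. Of all tested genes 1.89% were higher and 0.95% lower at that threshold.

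CGNL1, the paralog of cingulin called paracingulin, was the 1 of the 92 tested genes of these lists whose groups did not overlap, where 1.45% of all tested genes had groups that did not. It stood at 60.8 CPM in FLI 20, 21.3 in FLI 3M, 25.5 in FLI 4M and 24.6 in FLI 50, against 9.69 in control 10, 17.3 in control 20, 13.8 in control 3M and 12.1 in control 4M. All 4 FLI samples were above all 4 controls, and FLI 20 was well above the rest. The means were 33.1 ± 18.6 CPM in FLI and 13.2 ± 3.18 CPM in control samples, a log2 difference of 1.18 (SE 0.34, limma adjusted p = 0.970). Without FLI 20 the difference was 0.85.

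The membrane proteins other than claudins had 3 of 9 tested genes higher and 6 lower in FLI samples, and 0 passed. JAM2, an endothelial and epithelial adhesion molecule, was at 7.20 ± 4.69 CPM in FLI and 11.5 ± 2.66 CPM in control samples. LSR, which recruits tricellulin to tricellular contacts, was the highest per kb, at 94.98 ± 8.06 CPM in FLI and 86.7 ± 14.0 CPM in control samples. ILDR1, of the same family, was at 12.8 ± 7.90 CPM in FLI and 6.29 ± 3.44 CPM in control samples.

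Other scaffold and plaque genes had 10 of 17 higher and 7 lower, and YBX3, a factor held at junctions by ZO-1, was the highest per kb at 132 ± 27.1 CPM in FLI and 129.5 ± 39.1 CPM in control samples. In the list of EPCAM and the membrane serine proteases with their inhibitors, 5 of 6 were higher in FLI samples and 0 passed. The protease gene ST14 was at 230 ± 19.9 CPM in FLI and 191 ± 71.6 CPM in control samples, with 87.6 CPM in control 10. SPINT2, an inhibitor of such proteases, was the highest per kb and ran the other way in that library, at 586 CPM in control 10 and 243 to 488 CPM elsewhere.

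Apical polarity genes had 7 of 15 higher and 8 lower in FLI samples. SCRIB, a basolateral polarity scaffold, was at 163 ± 30.4 CPM in FLI and 115 ± 23.6 CPM in control samples (log2 difference 0.50, SE 0.18, limma adjusted p = 0.970), and control 20 lay inside the FLI range. PRKCZ, an atypical protein kinase C of the apical complex, was at 61.7 ± 10.96 CPM in FLI and 43.7 ± 12.3 CPM in control samples. CRB3, an apical membrane protein, was at 53.8 ± 3.45 CPM in FLI and 48.7 ± 4.92 CPM in control samples.

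Among transcription factors of epithelial identity 10 of 14 were higher in FLI samples, 0 passed, and 11 of the 14 had their lowest level in control 10. GRHL1 was at 293 ± 53.1 CPM in FLI and 239.5 ± 171 CPM in control samples, with 32.5 CPM in control 10. TFAP2A was at 115 ± 20.9 CPM in FLI and 69.8 ± 39.3 CPM in control samples, with 13.7 CPM in control 10. KLF5 was highest in control 10 at 157 CPM, with 36.6 to 87.5 CPM elsewhere. Of the repressors of epithelial genes SNAI1 was the 1 tested, at 6.26 ± 1.44 CPM in FLI and 7.57 ± 1.03 CPM in control samples.

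Adherens junction genes had 7 of 10 higher in FLI samples and desmosome genes 5 of 8, and 0 passed in either list. CDH1, the epithelial cadherin, was at 542 ± 101 CPM in FLI and 401 ± 219 CPM in control samples, with 98.8 CPM in control 10. JUP, a plakoglobin found in adherens junctions and desmosomes, was the highest adherens gene per kb, at 539 ± 97.7 CPM in FLI and 485 ± 143 CPM in control samples. CTNND1, which stabilises cadherins, was at 355 ± 35.5 CPM in FLI and 311 ± 18.5 CPM in control samples.

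EVPL, a plakin of the desmosome, was at 126 ± 44.3 CPM in FLI and 67.9 ± 28.8 CPM in control samples (log2 difference 0.94, SE 0.39, limma adjusted p = 0.970), and at 0.60 without control 10. Its relative PPL was at 16.6 to 25.3 CPM in FLI and 12.2 to 20.8 CPM in control samples. DSC2, a desmosomal cadherin and the highest of its list per kb, was at 369 ± 92.7 CPM in FLI and 397 ± 79.5 CPM in control samples.

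Fluid transport genes, whose products move sodium and water across the sealed epithelium, had 7 of 9 higher in FLI samples, and 0 passed. The water channel gene AQP3 was at 5.27, 2.72, 10.8 and 2.07 CPM in FLI 20, FLI 3M, FLI 4M and FLI 50, against 10.7, 5.63, 14.5 and 10.8 CPM in control 10, control 20, control 3M and control 4M. AQP3 in FLI 4M lay among the controls, and the log2 difference was -1.11 (SE 0.48, limma adjusted p = 0.970). AQP11, an intracellular water channel gene, was at 22.8, 7.36, 4.90 and 12.7 CPM in FLI 20, FLI 3M, FLI 4M and FLI 50, against 1.22, 5.66, 6.92 and 2.93 CPM in control 10, control 20, control 3M and control 4M. The FLI 4M value again lay among the controls, and the log2 difference was 1.40 (SE 0.57, limma adjusted p = 0.970).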

How the data were processed

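Per the submitters' processing notes, the tools were FastQC, HISAT2, featureCounts and edgeR and the build was ARS-UCD1.2. No source used here gives versions or the strand setting. The signal the authors deposited for each sample is CPM with TMM scaling: 100% of values are whole multiples of 1 read (0.00646 to 0.00987 CPM) within 0.001. The lowest gene total was 112 reads, and even numbers made up 57.8% of recovered counts from 1 to 20. Stated precision covers counting error only. The authors' deposited table also gives log2 fold changes, a likelihood ratio score and p-values, per the file headers.

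Groups follow the treatment label. The test was limma 3.58.1 (eBayes with trend, two-sided) on log2(value + 0.5) for genes with at least 1 CPM in at least 4 samples, with Benjamini-Hochberg adjustment over all of them. The exon length of the deposited table gave CPM per kb (1000 bases). Recovered reads were also tested with edgeR 4.0.16 and DESeq2 1.42.0 (R 4.3.3). The procedure was tested on simulated data. Genes and lists were chosen with earlier results of these data known. Named were the 9 genes, the gene of highest CPM per kb and the 2 of smallest p in each further list, the 2 most alike genes of each of the 9, the 3 most abundant markers of a tissue where a result turned on them, and others said to be chosen later. Some genes that this rule names are not reported here.

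FLI and control titles share 20, 3M and 4M, whose meaning is not labelled. Within these 3 pairs the deviations from group means correlated at 0.133, 0.351 and 0.359. All exceed 0.1, so a fit with the title number as a replicate block, over 6 samples, was among the alternatives.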

Additional observations from a re-analysis of the deposited data

Results flagged for a closer look

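In 72 groups of 4 samples, 2 for each junction gene chosen by the rule for named genes, the gap between the outermost sample and its neighbour was set against the group's range on the log2 scale. In 2 of them it passed Dixon's critical value, where chance gives about 1 in 20 groups. TJP3 in FLI 50, at 75.8 CPM, lay below the other FLI samples at 100.1 to 104 CPM. CDH1 in FLI 20, at 692 CPM, lay above the other FLI samples at 477 to 505 CPM. Among the control groups, control 10 included, 0 passed.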

How the results depend on the processing

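Each setting other than DESeq2 left the count of called genes at 0, and DESeq2 called 9 (8 higher, 1 lower). The counts for the 9 tight junction genes and for the other junction lists were 0 under every setting run, the replicate block on the title number included. Of 270 differences of 15 genes under 18 alternatives, 262 kept their direction and their side of the threshold. The direction turned for CLDN7 with the block (-0.13, and the same for those 6 samples without the block, which was added after seeing the data) and among titles ending in M (-0.13), where CLDN4 was at -0.021 and CGN at -0.068. With plain library totals F11R was at -0.0095 and CGN at -0.054. Leaving out 1 sample at a time gave CLDN7 -0.16 to 0.27, the lowest without control 10. The causes were not tested. For TJP3 the alternatives ran from 0.39 (titles ending in M) to 1.55 (titles ending in 0), with adjusted p from 0.695 to 0.999. The block changed no call. Counting error was small beside the spread between libraries for the 9 genes.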

Other observations

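Some claudins of low level did not pass the filter and were not tested. CLDN1, CLDN8 and CLDN10 were chosen from them after their values were seen. CLDN1 and CLDN8 stood out in FLI 20. CLDN1, a claudin of barrier epithelia such as epidermis, was at 12.8 CPM in FLI 20, against 0.165 to 0.958 CPM in the other 7 samples. CLDN8 was at 0.935 CPM in FLI 20 and at most 0.0895 CPM elsewhere. CLDN10, which forms ion pores in secretory epithelia, was listed with 0 reads in FLI 50 and in control 3M. It was at 0.0175, 0.236 and 0.336 CPM in FLI 20, FLI 3M and FLI 4M. In control 10, control 20 and control 4M it was at 0.859, 1.68 and 0.569 CPM. The authors' deposited table gives it a log2 fold change of -2.38, with a likelihood ratio p of 0.0447 and an adjusted p of 0.915. FLI 20 also had the highest level of 8 of the 17 tested scaffold and plaque genes, where it was the highest sample for 20.1% of all tested genes.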
